A study of Mus musculus with 6 samples.

Results

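The variable (V) gene segments of the immunoglobulin loci were examined in RNA from mouse lung innate lymphoid cells (ILCs) of 2 sorts. Members were selected on their counts: they were the rows named Ighv, Igkv or Iglv whose counts, summed over the 6 libraries, reached 10. Of 348 annotated segments, 237 met this minimum: 125 of 185 heavy chain segments (Ighv), 109 of 160 kappa segments (Igkv) and all 3 lambda segments (Iglv). Another 30 segments had 1 to 9 counts and 81 had 0. Selection on the sum over both populations means that a segment present in a single population could pass. Just inside the minimum stood the pseudogene Ighv1-17, with 1, 0 and 0 counts in KLRG1-positive and 5, 1 and 5 in KLRG1-negative libraries. Ighv8-6, with the same sum of 12 counts, had 0, 0 and 1 in KLRG1-positive and 10, 1 and 0 in KLRG1-negative libraries. Just outside it stood the pseudogenes Ighv1-28 and Ighv8-7, each with a sum of 9 counts.

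The KLRG1-positive group held 3 libraries from cells that the extraction notes describe as high in KLRG1, and that carry the ILC2 (group 2 ILC) label. The KLRG1-negative group held the other 3 libraries. KLRG1 is an inhibitory lectin-like receptor found on activated group 2 ILCs. All 6 libraries came from wild-type C57BL/6 mice with the 4get allele, a green fluorescent protein reporter at Il4, that were given 500 ng of recombinant interleukin-33 intraperitoneally for 4 days and killed on day 5. Lineage-negative, CD90-positive cells were sorted. The labels give neither ages nor lineage antibodies. Whether each library is a mouse of its own is not stated either, and the p-values then cover sample-to-sample spread that may be only technical. Assigned counts ran from 17323004 to 23946073 per library.

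V segments encode most of the antigen-binding part of an antibody chain. In a developing B cell the RAG recombinase joins 1 V segment to a J segment (and, in the heavy chain, a D segment between them), so that a mature B cell and its plasma cell progeny transcribe, with few exceptions, 1 productive heavy and 1 productive light chain. In B lineage cells the V segments transcribed thus depend on the clone, whereas ILCs develop without rearranged antigen receptors. In laboratory mice most B cells carry a kappa light chain, and the lambda locus has few V segments.

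The heavy chain segments lie on GRCm38 chromosome 12 (113572927 to 116010093), the kappa segments on chromosome 6 (67555497 to 70704177) and the lambda segments on chromosome 16 (19085017 to 19260859). By annotation, 23 of the 125 heavy chain members and 16 of the 109 kappa members were pseudogenes and the others functional genes. A V segment consists of a short leader exon and a V exon that holds the framework and antigen-contact codons. The sequences that follow are stretches of V exons, 5′ to 3′ on the coding strand, from GENCODE M21 (GRCm38). Iglv1 (chr16:19085017-19085316, minus strand) and Iglv2 (chr16:19260401-19260700, minus strand) are shown because they were the leading segments of every library. Capitals mark the 8 positions of 300 at which they differ.
Iglv1: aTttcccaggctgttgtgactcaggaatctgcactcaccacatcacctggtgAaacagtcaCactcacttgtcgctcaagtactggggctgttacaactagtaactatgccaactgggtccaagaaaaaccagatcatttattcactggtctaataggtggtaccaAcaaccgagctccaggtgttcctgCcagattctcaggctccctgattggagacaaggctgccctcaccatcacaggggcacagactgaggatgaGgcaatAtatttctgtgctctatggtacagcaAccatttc
Iglv2: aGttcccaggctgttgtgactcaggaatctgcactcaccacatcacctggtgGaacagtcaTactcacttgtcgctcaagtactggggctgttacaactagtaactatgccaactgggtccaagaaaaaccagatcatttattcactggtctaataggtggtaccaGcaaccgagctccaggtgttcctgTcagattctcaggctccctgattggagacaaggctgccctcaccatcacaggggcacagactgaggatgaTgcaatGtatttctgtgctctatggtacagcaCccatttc
The longest stretch without a difference between them was 104 bases. Of the 50-base words in each segment, 77.8% for Iglv1 and 79.0% for Iglv2 occurred in no other annotated V segment, so a minority of short reads could not be assigned to either.

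Ighv9-3 (chr12:114140692-114140991, minus strand) and Ighv9-4 (chr12:114299961-114300260, minus strand) are shown as 2 abundant heavy chain segments of 1 family. Capitals mark the 24 of 300 positions at which they differ.
Ighv9-3: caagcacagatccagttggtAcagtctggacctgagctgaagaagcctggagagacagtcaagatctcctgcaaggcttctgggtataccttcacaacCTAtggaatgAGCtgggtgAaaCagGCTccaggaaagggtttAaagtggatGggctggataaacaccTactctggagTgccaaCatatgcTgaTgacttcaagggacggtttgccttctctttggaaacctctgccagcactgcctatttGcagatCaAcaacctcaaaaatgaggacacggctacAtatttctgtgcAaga
Ighv9-4: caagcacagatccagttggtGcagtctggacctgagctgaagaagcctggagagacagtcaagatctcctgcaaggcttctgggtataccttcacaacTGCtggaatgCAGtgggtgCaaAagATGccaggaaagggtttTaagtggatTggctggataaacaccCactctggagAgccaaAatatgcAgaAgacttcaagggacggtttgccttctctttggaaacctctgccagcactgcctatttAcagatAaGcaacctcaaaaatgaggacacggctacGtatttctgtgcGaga
Igkv12-46 (chr6:69764523-69764820, minus strand) and Igkv12-44 (chr6:69814631-69814928, minus strand) were the 2 kappa segments with most counts. Capitals mark their 16 differences over 298 bases.
Igkv12-46: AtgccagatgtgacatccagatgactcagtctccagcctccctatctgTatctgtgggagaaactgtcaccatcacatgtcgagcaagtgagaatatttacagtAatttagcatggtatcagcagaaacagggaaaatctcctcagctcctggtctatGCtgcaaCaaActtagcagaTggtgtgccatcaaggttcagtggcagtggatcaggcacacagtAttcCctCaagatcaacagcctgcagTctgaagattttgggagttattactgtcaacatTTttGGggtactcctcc
Igkv12-44: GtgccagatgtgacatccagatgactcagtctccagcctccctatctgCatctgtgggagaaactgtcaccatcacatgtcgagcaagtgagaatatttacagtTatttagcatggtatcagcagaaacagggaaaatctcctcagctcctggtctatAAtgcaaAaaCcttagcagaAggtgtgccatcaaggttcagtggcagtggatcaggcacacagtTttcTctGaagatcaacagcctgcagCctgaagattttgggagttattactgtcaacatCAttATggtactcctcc
Ighv1-19 (chr12:114708648-114708947) led the heavy chain counts of every KLRG1-positive library, and Ighv1-31 (chr12:114829264-114829563) and Ighv5-4 (chr12:113597446-113597745) were the only members that passed the edgeR test between the groups. All 3 lie on the minus strand. Capitals mark the last in-frame cysteine codon, the conserved residue at which the third antigen-contact loop begins.
Ighv1-19: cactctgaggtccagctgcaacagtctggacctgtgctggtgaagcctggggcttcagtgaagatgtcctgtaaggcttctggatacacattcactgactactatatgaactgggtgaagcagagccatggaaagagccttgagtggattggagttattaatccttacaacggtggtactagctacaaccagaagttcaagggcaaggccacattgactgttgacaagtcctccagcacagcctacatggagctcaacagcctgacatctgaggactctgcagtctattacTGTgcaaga
Ighv1-31: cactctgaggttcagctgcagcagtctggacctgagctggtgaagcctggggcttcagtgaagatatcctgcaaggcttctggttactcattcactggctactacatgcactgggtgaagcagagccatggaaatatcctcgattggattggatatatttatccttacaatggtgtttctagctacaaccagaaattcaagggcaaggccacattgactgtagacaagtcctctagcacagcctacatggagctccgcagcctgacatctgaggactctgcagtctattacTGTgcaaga
Ighv5-4: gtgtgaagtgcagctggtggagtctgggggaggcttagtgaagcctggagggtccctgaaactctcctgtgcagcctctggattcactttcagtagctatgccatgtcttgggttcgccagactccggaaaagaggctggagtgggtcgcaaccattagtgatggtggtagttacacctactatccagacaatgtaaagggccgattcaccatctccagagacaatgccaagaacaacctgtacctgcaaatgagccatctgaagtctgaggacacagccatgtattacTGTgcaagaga
The V exon of the median member was 95.1% identical to its closest annotated neighbour in sequence. Because the authors left out reads that mapped to several places, members with close copies are understated. No member lacked unique 50-base words, and the 31 members in which fewer than 50% of words were unique held 8.47% of member counts.

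Members took up 0.201, 0.142 and 0.449% of all counts in KLRG1-positive libraries 1, 2 and 3, against 1.15, 0.322 and 0.982% in KLRG1-negative libraries 1, 2 and 3. In CPM, counts scaled by the TMM library size to a common total, their sum was 1960, 1444 and 4669 in KLRG1-positive and 11400, 3040 and 10250 in KLRG1-negative libraries. KLRG1-positive library 3 lay above KLRG1-negative library 2, so the groups overlapped. Between libraries of the same replicate number the KLRG1-positive one was lower in 3 of 3 pairs, over all members and in each locus. The labels do not state that libraries of the same number belong together. The group means were 2691 ± 1732 and 8228 ± 4530 CPM (SD, n = 3 each), a log2 ratio of -1.61. An exact permutation test of 3 libraries against 3 cannot give a two-sided p below 0.1, and summaries over members are described here by their values and overlap. In bulk RNA, fewer B lineage cells and less RNA per cell cannot be told apart.

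The 3 loci did not differ between the groups to the same extent. Kappa segments summed to 576, 254 and 854 CPM in KLRG1-positive libraries, all under the 5309, 1234 and 3935 CPM of KLRG1-negative libraries (log2 ratio of means -2.64). Heavy chain segments summed to 571, 356 and 1316 CPM in KLRG1-positive libraries and to 3667, 878 and 3180 CPM in KLRG1-negative libraries (log2 ratio -1.78), with overlap. Lambda segments had a mean of 1382 CPM in the KLRG1-positive group and of 2160 CPM in the KLRG1-negative group, a log2 ratio of -0.64 that went to -0.28 without KLRG1-negative library 3 and to -1.39 without KLRG1-positive library 3.

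**Figure D1:**
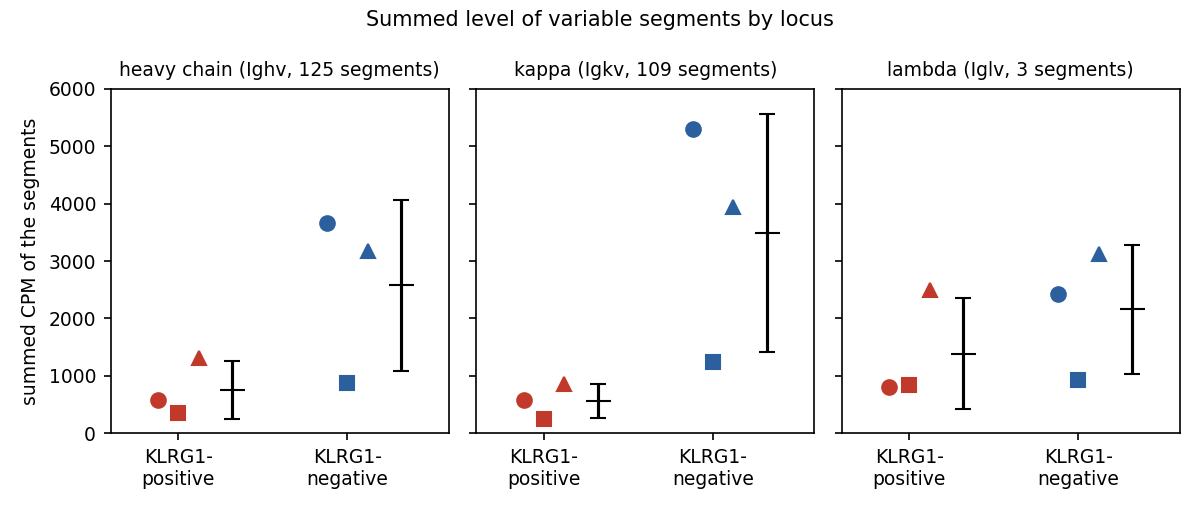
Summed CPM of the members of each locus in each library, with circles, squares and triangles for libraries 1, 2 and 3 and bars for the mean ± SD (n = 3 per group). The groups separate in the kappa panel, where the KLRG1-positive libraries reach 854 CPM at most and the KLRG1-negative libraries start at 1234 CPM, and overlap in the other panels.

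The lambda and kappa parts of the counts therefore stood in different proportion. Of light chain segment counts, kappa made up 41.5, 23.4 and 25.5% in KLRG1-positive libraries, against 68.7, 57.1 and 55.7% in KLRG1-negative libraries. The means were 30.1 ± 9.90% and 60.5 ± 7.12% (SD, n = 3 each), and the groups did not overlap. Counting error was small beside this spread: the Wilson 95% intervals of the 2 nearest libraries were 40.9 to 42.1% (KLRG1-positive 1) and 55.4 to 56.0% (KLRG1-negative 3). Constant region genes, which do not depend on how reads were split among V segments, gave kappa shares of 47.3, 26.7 and 29.9% in KLRG1-positive and 73.9, 62.1 and 60.2% in KLRG1-negative libraries (Igkc against the sum of Iglc1, Iglc2 and Iglc3). Iglc2 and Iglc3 are close copies, so their individual counts are uncertain. Because reads that mapped to several places were left out, their sum may be understated and these kappa shares overstated.

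Within the lambda locus the leading segment differed between the groups. Iglv1 had 9077, 9652 and 32692 counts and Iglv2 5161, 5913 and 22935 counts in KLRG1-positive libraries. In KLRG1-negative libraries Iglv1 had 18091, 5852 and 28099 counts and Iglv2 24215, 17136 and 34867. The ratio of Iglv1 to Iglv2 counts was thus 1.76, 1.63 and 1.43 in KLRG1-positive libraries and 0.747, 0.342 and 0.806 in KLRG1-negative libraries, without overlap. This ratio was chosen after its values were seen, and the segments are of similar length (391 and 366 bases of exon). Neither segment alone passed the edgeR test: Iglv1 had a log2 fold change of -0.06 ± 0.71 (SE, adjusted p = 0.985) and Iglv2 of -1.19 ± 0.60 (SE, adjusted p = 0.423). The third segment, Iglv3, which shares only 55.9% of its V exon bases with its closest relative, stayed under 2% of lambda counts in KLRG1-positive libraries (1.37, 0.307 and 1.17%), against 2.88, 2.30 and 3.34% in KLRG1-negative libraries.

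Mouse lambda V segments are known to join preferred constant genes, Iglv1 the J segments upstream of Iglc1 and Iglc3, and Iglv2 mainly that of Iglc2. In KLRG1-positive libraries there were 82.0, 81.3 and 81.3 Iglv1 counts per 100 counts of Iglc1 and Iglc3, against 87.4, 91.95 and 77.8 in KLRG1-negative libraries. Iglv2 counts per 100 of Iglc2 were 81.5, 79.3 and 80.8 in KLRG1-positive and 76.1, 70.8 and 68.2 in KLRG1-negative libraries. V and constant counts were compared in the other loci as well. There were 17.7, 18.1 and 19.2 heavy chain segment counts per 100 heavy chain constant counts in KLRG1-positive libraries and 18.7, 17.4 and 17.4 in KLRG1-negative libraries. For kappa the figures per 100 Igkc counts were 65.4, 67.7 and 65.9 in KLRG1-positive and 64.1, 62.6 and 62.1 in KLRG1-negative libraries. Between the groups the Iglv2 and kappa ratios did not overlap, whereas the Iglv1 and heavy chain ratios did. Iglv3 counts were left out of both lambda ratios and Iglc2 counts are uncertain, so the separation of the Iglv2 ratio may depend on these choices. The heavy chain constant counts were almost all Ighm, the gene of IgM: 98.4, 99.5 and 99.7% in KLRG1-positive and 93.4, 93.3 and 98.1% in KLRG1-negative libraries.

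**Figure D2:**
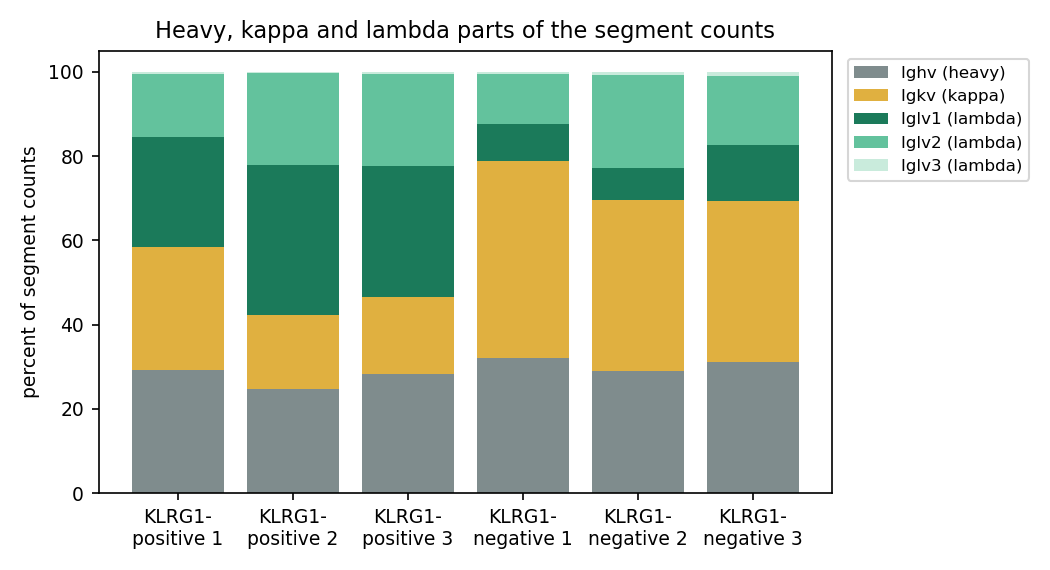
Percent of each library's member counts that fell on Ighv, Igkv and each lambda segment, from the bottom up, as bars for the 6 libraries. The lambda part is 41.5 to 57.8% in KLRG1-positive and 21.3 to 30.5% in KLRG1-negative libraries, and Iglv1 exceeds Iglv2 in the KLRG1-positive libraries alone.

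Segments from across all loci were detected in both groups. At least 1 count was found for 205, 127 and 207 of the 237 members in KLRG1-positive libraries and for 236, 193 and 232 in KLRG1-negative libraries. At 10 or more counts the numbers were 141, 56 and 140 in KLRG1-positive and 219, 149 and 215 in KLRG1-negative libraries, without overlap. Counting each library at the total of the smallest, 27032 member counts, gave 200.6, 127 and 179.1 segments in KLRG1-positive and 224.7, 178.4 and 221.3 in KLRG1-negative libraries, with overlap. In all, 105 members had a count in every library. A further 13 had 0 counts in all 3 KLRG1-positive libraries, and 0 members were without counts in all KLRG1-negative libraries. A segment present in 1 group alone could reach the minimum of 10 counts more easily in the KLRG1-negative group, which held more member counts. These numbers therefore depend on the selection rule and do not measure a difference between the groups. KLRG1-positive library 2 stood lowest, with 110 members undetected against 32 and 30 in the other KLRG1-positive libraries.

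The leading segments held more of the counts in KLRG1-positive libraries. The top 10 segments of a library held 67.0, 85.5 and 80.3% of its member counts in the KLRG1-positive group (mean 77.6 ± 9.53%, SD, n = 3) and 45.8, 63.4 and 50.2% in the KLRG1-negative group (53.1 ± 9.15%, n = 3), without overlap. The first segment alone, Iglv1, held 26.1, 35.7 and 31.1% in KLRG1-positive libraries. In KLRG1-negative libraries the first was Iglv2, with 11.8, 22.2 and 16.4%. It took 4, 2 and 2 segments to reach 50% of member counts in KLRG1-positive libraries, against 14, 6 and 10 in KLRG1-negative libraries. These pooled numbers include the lambda share. For 50% of heavy chain counts alone it took 4, 3 and 3 segments in KLRG1-positive and 14, 6 and 12 in KLRG1-negative libraries. For kappa alone it took 7, 2 and 4 in KLRG1-positive and 9, 5 and 9 in KLRG1-negative libraries, with overlap. The effective number of segments, which is the number of equally used segments with the same Shannon entropy, was 28.2, 10.8 and 15.6 in KLRG1-positive libraries (18.2 ± 8.97, SD, n = 3) and 69.4, 31.2 and 52.9 in KLRG1-negative libraries (51.2 ± 19.2, n = 3).

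Within single loci the measures differed in whether the groups overlapped. Among heavy chain segments alone the effective number was 24.9, 13.7 and 16.1 in KLRG1-positive and 55.5, 23.2 and 47.4 in KLRG1-negative libraries, with overlap. Among kappa segments alone it was 32.02, 8.40 and 22.2 in KLRG1-positive and 41.0, 21.4 and 41.3 in KLRG1-negative libraries, also with overlap. The top 10 shares of either locus overlapped too. The first heavy chain segment held 27.4, 30.9 and 20.9% of its locus in KLRG1-positive and 10.9, 19.2 and 11.8% in KLRG1-negative libraries, without overlap. The 5 first heavy chain segments held 56.2, 65.4 and 66.6% in KLRG1-positive and 28.0, 49.4 and 30.2% in KLRG1-negative libraries, also without overlap. The first kappa segment held 17.0, 31.8 and 24.0% in KLRG1-positive and 9.60, 15.9 and 8.35% in KLRG1-negative libraries, again without overlap, while the shares of the 5 first kappa segments overlapped. Between libraries of the same number, the KLRG1-positive one had the lower effective number in 3 of 3 pairs for either locus. A V segment can be shared by many clones, so these counts do not number clones.

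**Figure D3:**
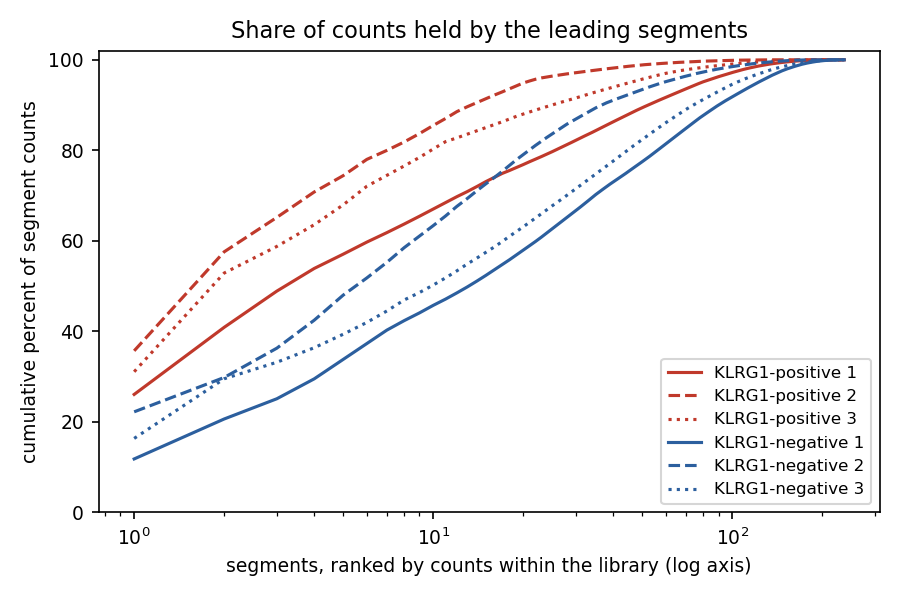
Cumulative percent of member counts against the rank of the segments within a library (log axis), with 1 line per library. The KLRG1-positive lines pass 50% at rank 2 to 4 and the KLRG1-negative lines at rank 6 to 14.

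Ighv1-19 was the first heavy chain segment in all 3 KLRG1-positive libraries. It held 27.4, 30.9 and 20.9% of heavy chain segment counts there, against 3.36, 2.68 and 5.28% in KLRG1-negative libraries. Its level was 156.8, 109.8 and 274.6 CPM in KLRG1-positive libraries and 123.2, 23.6 and 168.0 CPM in KLRG1-negative libraries, and these ranges overlap, with the KLRG1-positive library higher in 3 of 3 same-numbered pairs (log2 fold change 0.78 ± 0.71 SE, edgeR adjusted p = 0.707). A segment of the same family, Ighv1-31, stood at the other end. Counts of Ighv1-31 were 5, 1 and 1 in KLRG1-positive libraries, against 245, 801 and 1355 in KLRG1-negative libraries. Its mean was 0.126 ± 0.134 CPM in KLRG1-positive libraries and 36.8 ± 26.1 CPM in KLRG1-negative libraries (SD, n = 3 each), with a log2 fold change of -8.16 ± 1.04 (SE) and an edgeR quasi-likelihood adjusted p of 0.0365. With the replicate block its adjusted p was 0.0863, and it passed in 2 of 6 fits with 1 library left out. Ighv5-4 fell as well, to 1.91, 0.801 and 4.26 CPM in KLRG1-positive libraries, against an even 54.1, 41.3 and 51.2 CPM in KLRG1-negative libraries (log2 fold change -4.38 ± 0.66 SE, adjusted p = 0.0454). With the replicate block its adjusted p was 0.0685, and it passed in 0 of 6 fits with 1 library left out (edgeR adjusted p 0.0897 to 0.143).

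Ighv6-3 led the heavy chain counts of KLRG1-negative libraries 1 and 2 and Ighv9-3 those of KLRG1-negative library 3. Ighv6-3 stood at 52.4, 13.2 and 88.3 CPM in KLRG1-positive libraries, all under the 401.2, 168.4 and 134.1 CPM of KLRG1-negative libraries, but did not pass the test (log2 fold change -2.19 ± 0.76 SE, adjusted p = 0.231). Ighv9-3 stood at 37.1, 11.96 and 192.3 CPM in KLRG1-positive libraries and at 189.0, 65.1 and 373.8 CPM in KLRG1-negative libraries. Ighv9-4, its relative shown above, had 33.8, 26.8 and 223.7 CPM in KLRG1-positive libraries and 55.8, 77.7 and 122.5 CPM in KLRG1-negative libraries. In both of these segments KLRG1-positive library 3 was several times higher than the other KLRG1-positive libraries. Ighv5-9-1 ranged from 4.45 to 97.8 CPM in KLRG1-positive libraries and from 10.5 to 155.3 CPM in KLRG1-negative libraries.

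Among kappa segments KLRG1-positive library 2 differed widely from the others of its group. It had 30.6% of counts in common with KLRG1-positive library 1 and 15.1% with KLRG1-positive library 3. KLRG1-positive libraries 1 and 3 had 57.5% in common, against 52.8 to 61.6% for pairs of KLRG1-negative libraries. For heavy chain segments, pairs of KLRG1-positive libraries had 54.1 to 62.8% in common. Igkv12-46, first in KLRG1-positive libraries 1 and 3 and in KLRG1-negative library 1, had 1741, 0 and 4611 counts in KLRG1-positive libraries. It had 9160, 4763 and 5192 counts in KLRG1-negative libraries. The 0 in KLRG1-positive library 2 fell among 4763 kappa segment counts, which allows a share of up to 0.063% (3 counts). That library was led by Igkv6-15 instead, with 31.8% of its kappa counts (Wilson 95% interval 30.5 to 33.2%). Igkv6-15 itself was at 22.0, 81.0 and 3.91 CPM in KLRG1-positive libraries and at 157.9, 7.57 and 54.7 CPM in KLRG1-negative libraries, a fully overlapping pattern.

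Igkv12-44, first in KLRG1-negative library 2, was at 28.0, 1.28 and 39.0 CPM in KLRG1-positive libraries and at 501.1, 196.7 and 168.6 CPM in KLRG1-negative libraries (log2 fold change -3.66 ± 1.16 SE, edgeR adjusted p = 0.191). Igkv8-30, first in KLRG1-negative library 3, was at 21.3, 1.23 and 8.39 CPM in KLRG1-positive libraries and at 123.6, 98.8 and 328.6 CPM in KLRG1-negative libraries (-4.16 ± 1.07 SE, adjusted p = 0.123). Neither segment passed the test, although in each the groups were separate. Igkv14-126 ranged from 0.178 to 61.9 CPM in KLRG1-positive libraries and from 104.6 to 337.2 CPM in KLRG1-negative libraries. Igkv1-117 overlapped, with 13.1 to 52.1 CPM in KLRG1-positive libraries and 14.6 to 305.4 CPM in KLRG1-negative libraries. Igkv3-2, chosen after its values were seen, had 390, 23 and 374 counts in KLRG1-positive and 8796, 31 and 235 in KLRG1-negative libraries, so 1 library held nearly all of its counts in that group.

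**Figure D4:**
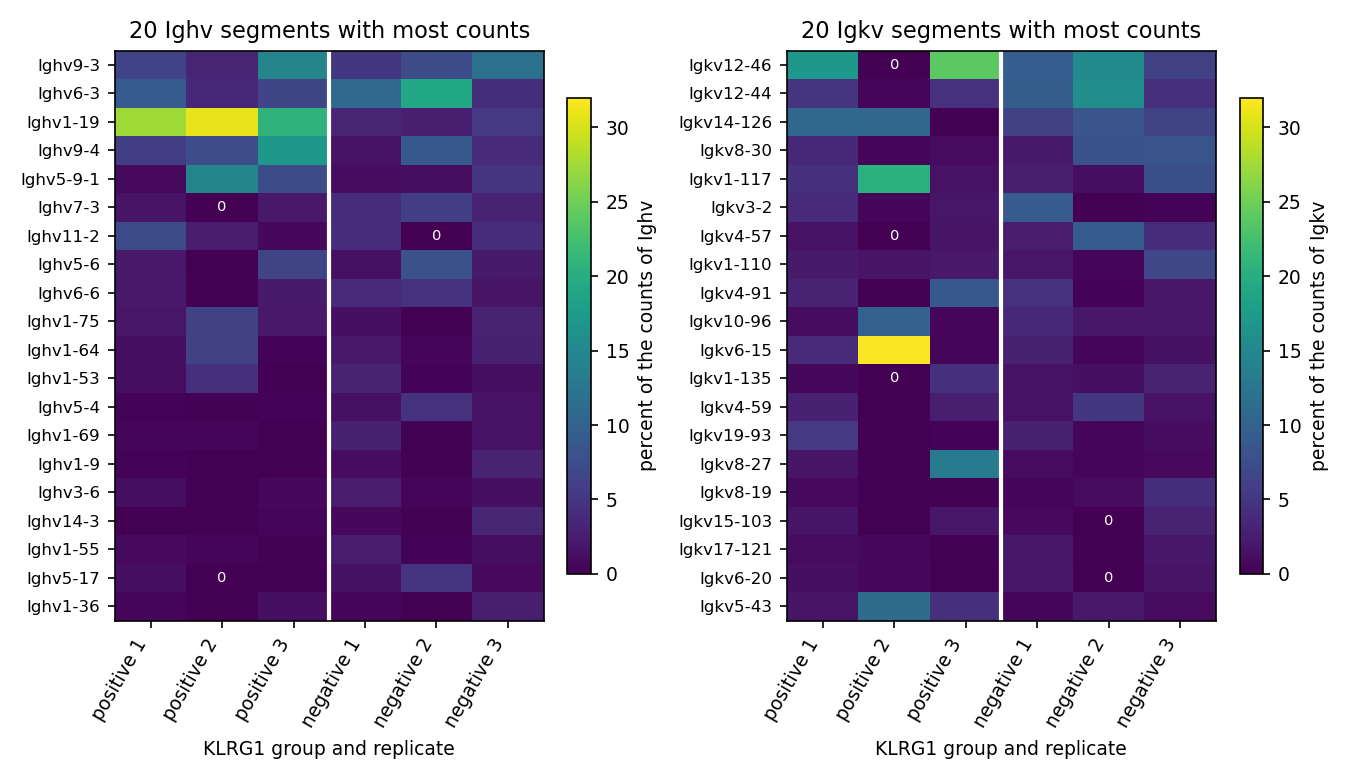
Percent of the heavy chain (left) and kappa (right) segment counts of each library that fell on the 20 members with most counts, KLRG1-positive libraries left of the white line and KLRG1-negative libraries right of it, with 0 printed where a library had no count. Ighv1-19 is brightest in all 3 KLRG1-positive columns (20.9 to 30.9%), while no kappa segment leads all libraries of a group.

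Most members were lower in KLRG1-positive libraries by their means, and few passed the test. edgeR's filter on low counts kept 183 of the 237 members among 15197 genes. Of these 183, 0 were called higher and 2 lower (Ighv1-31 and Ighv5-4) at an adjusted p under 0.05. Over all genes tested, 0.125% were called higher and 1.21% lower, so in this fit the share of members called was close to the background. With the replicate number as a block 0 members were called. DESeq2, fitted to all 237 members among 26868 genes, called 73 members lower and 0 higher. That was 30.8% of members, against 6.04% of all genes called lower, so the share of members was above the background there. In the edgeR fit 65 members were lower with an unadjusted p under 0.05, and 0 were higher with one; of all genes, 11.5% were lower by that measure. The median log2 fold change of the members tested was -2.998, against -0.05 over all genes, and 177 of the 183 were negative. In 64 of the 183 every KLRG1-positive library lay under every KLRG1-negative library, a pattern shown by 15.2% of all genes tested. The spread was wide: the median biological coefficient of variation was 1.11 for members and 0.496 for all genes. Leaving out KLRG1-positive library 2 or 3, or KLRG1-negative library 2 or 3, left 0 members called, leaving out KLRG1-negative library 1 left Ighv1-31 alone, and leaving out KLRG1-positive library 1 left Ighv1-31 and added Igkv4-50.

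Over all 237 members the KLRG1-positive mean was the lower one in 231. The 6 exceptions, named after their values were seen, were Ighv1-19, Ighv9-4, Ighv1-21-1, Ighv9-2, Ighv8-2 and Igkv8-27. All 6 overlapped between the groups. In Ighv8-2 and Igkv8-27 the mean was carried by KLRG1-positive library 3, with 9.72 and 111.5 CPM, against 0 and 0 CPM for Ighv8-2 and 10.02 and 0.427 CPM for Igkv8-27 in KLRG1-positive libraries 1 and 2. Their KLRG1-negative means were 1.02 and 30.0 CPM.

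**Figure D5:**
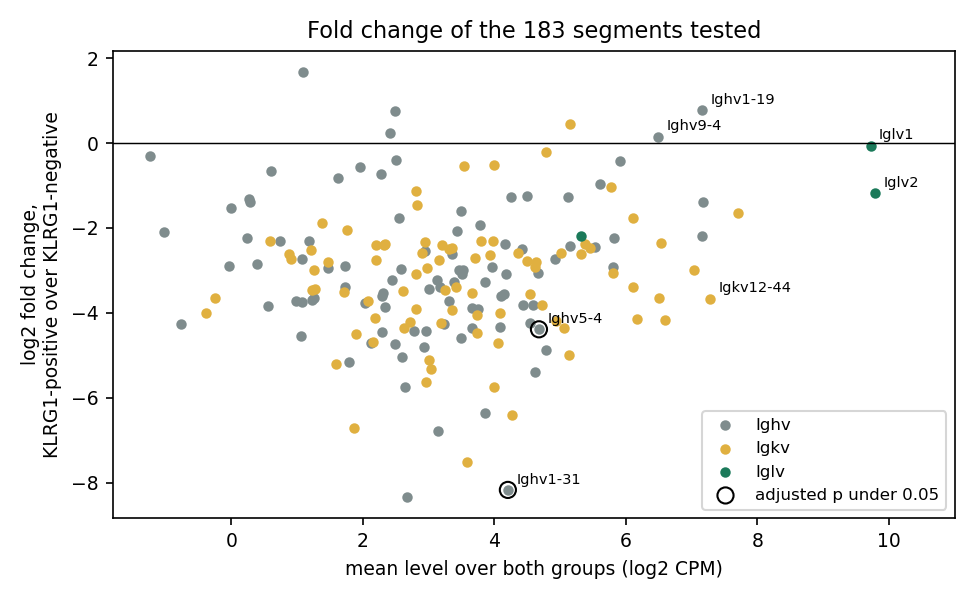
Log2 fold change (KLRG1-positive over KLRG1-negative) of the 183 members tested against their mean level in log2 CPM, coloured by locus, with rings on the 2 members past the threshold. The points scatter about a median of -2.998, with Iglv1, Ighv9-4 and Ighv1-19 near or above 0 at the high end.

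By family, heavy chain counts were led by Ighv1 (the large J558 family) with 52.5, 58.7 and 33.5% in KLRG1-positive and 49.2, 26.7 and 38.5% in KLRG1-negative libraries. The 4 members of Ighv9 held 13.3, 14.9 and 32.7% in KLRG1-positive and 7.33, 17.0 and 16.7% in KLRG1-negative libraries. The 4 members of Ighv7 held 2.20, 0 and 2.28% in KLRG1-positive libraries, all under the 4.48, 6.07 and 5.44% of KLRG1-negative libraries. Among kappa families Igkv12 held 24.0, 0.567 and 29.4% in KLRG1-positive and 20.9, 32.4 and 11.3% in KLRG1-negative libraries. Igkv4, the family with most members (32), held 16.4, 0.777 and 22.9% in KLRG1-positive and 18.7, 31.1 and 16.5% in KLRG1-negative libraries. KLRG1-positive library 2 was the exception in both kappa families.

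Usage was also compared by distance along both long loci. The 39 heavy chain members nearest to the J segments, 144 to 885 kb away, held 33.9, 37.4 and 54.9% of heavy chain segment counts in KLRG1-positive and 31.9, 48.0 and 50.4% in KLRG1-negative libraries. The 46 farthest, beyond 1508 kb, held 20.4, 26.0 and 7.27% in KLRG1-positive and 37.9, 13.8 and 20.7% in KLRG1-negative libraries. The 44 kappa members nearest to the kappa J segments held 49.2, 53.9 and 59.5% of kappa counts in KLRG1-positive and 51.4, 51.5 and 42.1% in KLRG1-negative libraries. The 35 in the middle band held 17.2, 0.819 and 23.0% in KLRG1-positive and 18.7, 28.5 and 16.1% in KLRG1-negative libraries, with KLRG1-positive library 2 far below the others. The 30 kappa members farthest from the kappa J segments, beyond 1987 kb, held 33.6, 45.3 and 17.5% in KLRG1-positive and 29.9, 20.0 and 41.8% in KLRG1-negative libraries. In none of these bands were the groups separate. Pseudogenes took 1.56 to 3.10% of heavy chain counts in KLRG1-positive and 1.52 to 2.72% in KLRG1-negative libraries. Of kappa counts they took 0.189 to 1.86% in KLRG1-positive and 1.68 to 3.44% in KLRG1-negative libraries.

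Libraries of 1 group shared their leading segments but differed in others. The first 3 segments were Iglv1, Iglv2 and Ighv1-19, in this order, in every KLRG1-positive library. Every KLRG1-negative library had Iglv2 first and Iglv1 second. The overlap of 2 usage profiles, the summed smaller share over all members, was 64.1 to 72.7% between pairs of KLRG1-positive libraries and 59.6 to 65.9% between pairs of KLRG1-negative libraries. Between a KLRG1-positive and a KLRG1-negative library it was 39.1 to 66.6%. The 66.6% was between the 2 libraries numbered 1, above the 64.1% of KLRG1-positive libraries 1 and 2, so likeness did not follow the group throughout. The libraries numbered 2 had 42.5% and those numbered 3 had 58.2% in common. For kappa segments alone the same-numbered pairs had 70.5, 20.2 and 44.5% in common, and the 70.5% of number 1 was the largest of the 15 pairs. For kappa segments alone the overlap of KLRG1-positive libraries 2 and 3 was 15.1%, the smallest of the 15 pairs. Of 78 members that reached 100 counts in some KLRG1-positive library, 19 had 0 counts in another library of that group. In the KLRG1-negative group this held for 18 of 179. Among members that reached 1000 counts it held for 1 of 13 in the KLRG1-positive and 4 of 60 in the KLRG1-negative group.

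A pair of segments known from mouse B-1 cells, the B cells of body cavities that make natural IgM, was followed because of that role and with its values already seen. Ighv11-2 and Igkv14-126 together encode antibodies to phosphatidylcholine. Ighv11-2 had 729, 162 and 219 counts in KLRG1-positive and 2689, 0 and 2664 in KLRG1-negative libraries. Its V exon is 98.7% identical to that of Ighv11-1, so reads that could not be placed may lower its counts. Igkv14-126 had 1099, 504 and 4 counts in KLRG1-positive and 6061, 2653 and 5388 in KLRG1-negative libraries. Each segment was thus nearly or wholly missing in 1 library in which the other was present. Ighv12-3 and Igkv4-91, the other such pair, had 81, 1 and 11 and 322, 3 and 1707 counts in KLRG1-positive libraries. In KLRG1-negative libraries they had 783, 0 and 81 and 4295, 103 and 1630 counts.

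Genes of the B lineage were measured beside the segments. Of 12 B cell identity genes, 1 passed the test, the Src-family kinase gene Blk, lower in KLRG1-positive libraries at 2.31, 3.37 and 6.66 CPM, against 73.4, 56.0 and 124.3 CPM in KLRG1-negative libraries (log2 fold change -4.36 ± 0.56 SE, edgeR adjusted p = 0.0365). With any 1 library left out Blk did not pass (edgeR adjusted p 0.0516 to 0.153). The summed level of the 12 genes was 148, 143 and 420 CPM in KLRG1-positive libraries and 743, 834 and 5156 CPM in KLRG1-negative libraries. KLRG1-negative library 3 thus stood far above the others, whereas the segments summed highest in KLRG1-negative library 1. Cd79a and Ms4a1, defining B cell markers, had counts in every library, while Cr2 had 0 in KLRG1-positive library 2 and KLRG1-negative library 2, and Fcer2a had 0 in KLRG1-positive libraries 1 and 2. Ighm was at 3171, 1955 and 6841 CPM in KLRG1-positive libraries and 18320, 4701 and 17960 CPM in KLRG1-negative libraries, and Igkc, the other constant gene with most counts, had means of 851 CPM (KLRG1-positive) and 5531 CPM (KLRG1-negative). None of the 11 constant region genes tested passed.

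Of 8 plasma cell genes 0 passed, and 7 had a negative log2 fold change. Prdm1 was the exception, with means of 62.8 CPM (KLRG1-positive) and 38.95 CPM (KLRG1-negative). Irf4 was nearly level (log2 fold change -0.007). The 8 genes summed to 606, 614 and 1132 CPM in KLRG1-positive and 2494, 771 and 2140 CPM in KLRG1-negative libraries, with overlap. Jchain, which links IgM and IgA polymers, had means of 328 ± 170 CPM (KLRG1-positive) and 1099 ± 632 CPM (KLRG1-negative; SD, n = 3 each), and the transcription factor gene Xbp1 had means of 277 CPM (KLRG1-positive) and 378 CPM (KLRG1-negative). The ratio of Ighm to Jchain lay between 9.89 and 13.2 in KLRG1-positive and between 11.3 and 14.1 in KLRG1-negative libraries. This ratio was chosen after its values were seen. Rag1 and Rag2, which encode the recombinase, had 0 counts in all 6 libraries, as did the surrogate light chain genes Igll1 and Vpreb2. Other genes of the V(D)J recombination and pre-B lists had counts. Dntt was at 0.0563, 0 and 0 CPM in KLRG1-positive and 1.22, 11.6 and 3.56 in KLRG1-negative libraries. Its log2 fold change was -7.86 (edgeR adjusted p = 0.0702). Of the 8 V(D)J genes tested, 5 had negative and 3 positive log2 fold changes. Vpreb3 was at 0.507, 0.32 and 1.42 CPM in KLRG1-positive and 3.95, 1.498 and 53 in KLRG1-negative libraries. Vpreb1 reached 0.45 CPM at most, in KLRG1-positive library 1. None of the other lists of the B lineage (receptor signalling, class switch, V(D)J recombination, B-1 and pre-B genes) held a gene that passed. Of the 10 signalling genes 7 had a negative log2 fold change, with a median of -1.89 over the 10. An unadjusted p under 0.05 was reached by 6 that were lower and 1 that was higher. In 6 every KLRG1-positive library lay under every KLRG1-negative one, and in 2 the order was the opposite. Plcg2 and the kinase gene Syk had most counts among them, with log2 fold changes of 0.04 (adjusted p = 0.992) and -3.24 (adjusted p = 0.195).

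Markers of other cell types were also measured. The ILC2 markers Gata3, Rora, Il1rl1, Arg1, Il5 and Klrg1 summed to 6299 to 7693 CPM in KLRG1-positive libraries and 554 to 2850 CPM in KLRG1-negative libraries, and 0 of these 6 passed the test; Klrg1 marks the sort itself. The 8 T cell markers summed to 482 to 621 CPM in KLRG1-positive libraries and 1131 to 4167 CPM in KLRG1-negative libraries, with 1 of them, Cd28, past the test (adjusted p = 0.043, and 0.0576 to 0.184 with 1 library left out). Of the 6 fibroblast markers 5 were lower past the test, 4 of them in 2 and Lum in 3 of the 6 fits with 1 library left out, and the 6 summed to 4.66 to 26.8 CPM in KLRG1-positive libraries and 3849 to 10770 CPM in KLRG1-negative libraries. The 6 myeloid markers summed to 46.1 to 294 CPM in KLRG1-positive libraries and 60.4 to 358 CPM in KLRG1-negative libraries. The part of any of these cell types in the segment values was not tested.

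T cell receptor V segments, counted in the same libraries with the same minimum, gave 126 members of 170 annotated. Their effective number was 9.25, 1.66 and 2.29 in KLRG1-positive libraries, below that of immunoglobulin segments in each, and 58.7, 41.8 and 42.7 in KLRG1-negative libraries. The first receptor segment of each library held 58.8, 91.4 and 84.6% of these counts in KLRG1-positive libraries, against 5.75, 14.4 and 18.6% in KLRG1-negative libraries. Only 2666 to 3501 counts fell on receptor V segments in KLRG1-positive libraries, against 27032 to 105178 on immunoglobulin segments. In KLRG1-negative libraries the receptor counts were 6180 to 19628, against 77100 to 213219 on immunoglobulin segments.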

How the data were processed

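RNA sequencing gave 6 libraries, 3 per group. Values are raw read counts, as deposited, which the authors took with featureCounts 1.5.2 on Ensembl 90 gene models (GRCm38), per the file headers, without strand and without multi-mapping reads. STAR 2.4.1d is named in the submitters' processing notes. cDNA was amplified, so counting intervals (Wilson, 95%) cover counting error only. Multi-mapping alignments made up 26.3 to 32.3% of a library.

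Symbols and classes came from GENCODE M21, where all 348 segments had the coordinates of the deposited table. Differences were tested on all genes with edgeR 4.0.16 (quasi-likelihood F test, TMM factors, filterByExpr, Benjamini-Hochberg adjustment). The code was run on simulated counts whose spread was smaller than that of the members. That run does not show how the test performs on the members. Thinning was computed from the hypergeometric expectation. The replicate numbers of the labels were checked for pairing: same-numbered libraries deviated from their group means together across genes (r = 0.382, 0.338 and 0.188), a reading from the data and not from the labels. Over the members tested alone these correlations were 0.419, -0.071 and 0.068. DESeq2 1.42.0, other scalings, other minimums and leaving out libraries were alternatives. Sequences and identities came from GENCODE M21 transcripts with Python 3.11.15 and edlib 1.3.9.post1; 5 members overlap the span of another annotated gene, and their counts are less certain.

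The members and gene lists were chosen with earlier results of these data known. Named segments were the 5 with most counts per locus, the first of each library and locus, those past the threshold and those at the minimum, and from each list the genes past the threshold or the 2 with most counts. Some genes under this rule are given only through their list.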

Additional observations from a re-analysis of the deposited data

How the results depend on the processing

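The number of members called lower depended on the settings. It was 2 in the edgeR fit and with DESeq2 size factors or library size only. It was 0 with the replicate block, and 0 to 2 when 1 library was left out. With no filter on low counts 4 of 237 members were called lower (1.69%, against 1.05% of all genes). With DESeq2 the number was 73 of 237 (30.8%, against 6.04% of all genes). Fits added after seeing the data gave 121 of 237 with DESeq2 and the replicate block (51.1%, against 6.92% of all genes). They gave 1, 0 and 0 without both libraries numbered 1, 2 or 3. The cause was not tested. No member was called higher under any of these settings. With the replicate block the adjusted p was 0.0863 for Ighv1-31, 0.0685 for Ighv5-4 and 0.0425 for Blk.

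The other summaries kept their direction under every alternative run. Leaving out 1 library, the log2 ratio of the summed level ranged from -2.27 to -1.30 (Ighv -2.47 to -1.44, Igkv -3.07 to -2.20, Iglv -1.39 to -0.28), and the mean log2 ratio within replicate numbers, the replicate block, was -1.58. The difference in detected segments ranged from -54.3 to -14.3, in top 10 share from 20.5 to 29.8 percentage points, in effective number from -42.9 to -23.8 and in kappa share from -36.1 to -26.3 percentage points. Dividing by segment length, a setting added later, left the top 10 difference at 24.3, against 24.5 points, and Igkv alone gave 13.2. The top 10 share could not vary in the lambda locus, which has 3 segments. The planned search of segment promoters was not run. With 3 libraries a group, counts on single segments limit what can be told of the rarer ones.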
